A study of Homo sapiens with 38 samples.

Results

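Broad H3K27me3 domains were defined in K562 cells as regions of at least 20 kb that both CST-9733 libraries of the benchmark set covered with SEACR peaks. The peak lists of the 2 libraries were merged on chromosomes 1 to 22 and X, regions overlapped by both were kept, and those of 20000 bp or more were called domains. This gave 1150 domains among 52630 regions called by both libraries, and among 91469 merged regions of either. The domains were thus chosen by their width and by H3K27me3 in these 2 libraries, and both are given only as a description. K562 is an established human line from a chronic myeloid leukemia, with traits of early erythroid cells, and all libraries used here came from it. In CUT&Tag, an antibody guides the transposase Tn5 to a histone mark, where it cuts and tags the DNA. The benchmark libraries had 15 PCR cycles and SDS-based extraction. They were ab177178 (1:100), ab4729 (1:100) and Diagenode (1:50) against H3K27ac, and CST-9733 (1:100) against H3K27me3, with 2 replicates each. A further 5 CST-9733 libraries at 1:100, which had no part in the choice, were the first library (15 cycles, SDS) and those with 11 or 13 cycles and SDS or column extraction. The study calls the benchmark replicates biological, but the labels do not say that they came from separate cultures, so p-values measure the spread between these libraries, which may be technical.

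H3K27me3 is the trimethylation of lysine 27 of histone H3 and is written by the Polycomb repressive complex PRC2. It is known for broad domains over developmental genes that a cell type keeps silent, such as the HOX clusters. H3K27ac is the acetylation of the same lysine and marks active promoters and enhancers, so 1 histone tail cannot carry both marks on that residue. A peak in a bulk library does not tell apart a mark on every copy of a locus from a mark on some cells or on some copies only.

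The 13 libraries used here, of 38 in the series, held from 10929 to 15608 SEACR peaks for H3K27ac and from 65283 to 106997 for H3K27me3. The peak lists hold no number of fragments and no other source of depth was used here, so a domain without a peak is only one in which none was listed. The 2 benchmark H3K27me3 lists held 85238 and 83634 peaks, of which 11 had both ends in common. The first CST-9733 library stood apart from the other H3K27me3 libraries outside the benchmark set, whose lists are marked as downsampled in the deposit. Of 26 erythroid genes listed, 17 had an H3K27ac peak at the promoter in all 6 libraries, against 0 of 25 hepatocyte genes and 1 of 26 genes of T and B cells. Over all protein-coding genes the share was 32.9%.

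Polycomb targets are known to be rich in CG dinucleotides. To show such stretches in domains that the results turn on, the 150 bases with most CG pairs, leaving out untranslated exon bases, are printed for 4 domains, from the plus strand of GRCh37 and with each CG in capitals. The first lies in coding exon sequence of LAMC3 in the widest domain (chr9:133884627-133884776, 26 CG pairs). The SLC12A7 window lies in the second widest domain (chr5:1111919-1112068, 25 CG pairs) and holds 86 coding bases. The HOXC12 window is coding throughout (chr12:54349044-54349193, 30 CG pairs). The TBX1 window is intronic and lies in the domain with most H3K27ac (chr22:19744313-19744462, 24 CG pairs).
LAMC3: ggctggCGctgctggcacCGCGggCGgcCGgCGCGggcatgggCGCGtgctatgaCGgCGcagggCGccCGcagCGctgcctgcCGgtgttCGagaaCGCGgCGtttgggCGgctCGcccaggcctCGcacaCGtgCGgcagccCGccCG
SLC12A7: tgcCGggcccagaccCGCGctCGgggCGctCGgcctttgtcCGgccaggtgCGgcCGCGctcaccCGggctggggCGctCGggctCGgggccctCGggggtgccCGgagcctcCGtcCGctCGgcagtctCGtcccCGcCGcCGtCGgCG
HOXC12: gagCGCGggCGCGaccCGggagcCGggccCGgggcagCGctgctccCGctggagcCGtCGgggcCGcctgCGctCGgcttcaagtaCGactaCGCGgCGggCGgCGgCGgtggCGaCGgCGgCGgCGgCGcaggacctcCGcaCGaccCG
TBX1: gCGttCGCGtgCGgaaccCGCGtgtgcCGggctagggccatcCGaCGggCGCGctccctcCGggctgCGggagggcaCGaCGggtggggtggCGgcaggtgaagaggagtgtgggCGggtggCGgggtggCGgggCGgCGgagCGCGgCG

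The domains made up 2.19% of the regions called by both libraries but 16.0% of their bases, and covered 35.6 Mb, or 1.26% of the known bases of chromosomes 1 to 22 and X. Their median width was 26.7 kb, against 2470 bp for all regions called by both libraries. Widths ran from 20008 to 168509 bp, with 437 domains of at least 30 kb, 90 of at least 50 kb and 6 of at least 100 kb. Peaks of replicate 1 covered 95.0% of the domain bases and peaks of replicate 2 covered 97.9%. A domain was a single unbroken peak in 212 cases in replicate 1, in 536 in replicate 2 and in 127 in both, and the others were built from up to 10 peaks of a library. The MACS2 lists of the same libraries covered 96.8% and 96.2% of the domain bases. Just inside the threshold were a domain of 20008 bp over COL20A1, a collagen gene, and gene-free domains of 20029 and 20031 bp. Just outside it were regions of 19994 bp over KRTAP5-6, a keratin-associated protein gene, of 19990 bp over the homeobox gene EMX2, and of 19986 bp over no protein-coding gene.

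**Figure D1:**
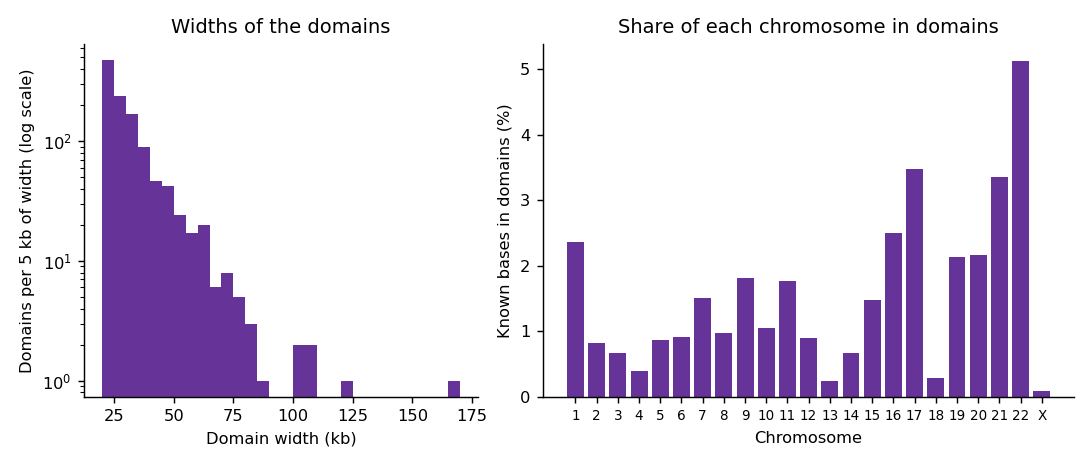
Left, the number of domains per 5 kb of width (log scale). Right, the percentage of the known bases of each chromosome that lies in domains. Most domains are under 30 kb wide and 1 reaches 168509 bp, and chromosome 22 has the largest share (5.13%, or 2.33% outside the stretch beside BCR) and X the smallest (0.085%).

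Domains were spread unevenly over the chromosomes. Chromosome 1 had most of them, 161 domains with 5.33 Mb, followed by chromosome 17 with 86. Relative to length, chromosome 22 came first with 55 domains, 1.58 per Mb and 5.13% of its known bases, then chromosome 17 with 3.48% and chromosome 21 with 3.35%. The first place of chromosome 22 rested on 30 domains in the 5 Mb before BCR and in BCR, a stretch described further with H3K27ac. Outside it, chromosome 22 had 25 domains, 0.837 per Mb and 2.33% of its known bases, below chromosomes 17 and 21. At the other end, X had 5 domains and 0.085% of its bases, chromosome 13 had 8 domains and 0.246%, and chromosome 18 had 7 and 0.285%. Over the 23 chromosomes, domains per Mb went with the GC content (Pearson r = 0.814, Spearman rho = 0.867) and with protein-coding genes per Mb (r = 0.587, rho = 0.810), given as a description since the chromosomes share libraries and base composition. Of the domains, 30.6% lay within 5 Mb of a chromosome end, against 19.2% of regions of 5 to 20 kb and 7.08% of known bases. Some domains lay near each other: 33.5% of the gaps between neighbours were within 50 kb, and the median gap was 180.6 kb. Of the 378 gaps within 50 kb, 183 were within 10 kb. Peaks were merged only where they touched, so a short break makes 2 domains of 1 block. The gaps between shorter regions were not counted.

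The DNA in domains was richer in G and C than its surroundings. Domains had a GC content of 53.6%, against 49.3% in the 20 kb on either side, 51.0% in regions of 5 to 20 kb and 40.9% over the chromosomes. The observed over expected ratio of CpG was 0.307 in domains, 0.287 in flanks, 0.295 in the shorter regions and 0.236 over the chromosomes. Among domains it ran from 0.134 to 0.649. Introns of protein-coding genes made up 53.9% of domain bases, exons 7.0% and sequence outside these genes 39.1%, against 42.1%, 3.82% and 54.1% over the chromosomes. In flanks the shares were 44.3%, 6.12% and 49.6%, and in the shorter regions 45.4%, 6.07% and 48.5%, so the exon share differed little from both.

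The 12 widest domains each overlapped at least 1 protein-coding gene. The widest (chr9:133830768-133999276) contained all of LAMC3, a laminin chain of basement membranes, and AIF1L, a relative of the actin-binding protein AIF1. Next came a domain of 124.6 kb (chr5:1048262-1172818) that contained SLC12A7, a potassium-chloride cotransporter. TIMP2, an inhibitor of matrix metalloproteinases, had 82.9% of its length in a domain of 106.6 kb that also contained all of CEP295NL and 8.0% of LGALS3BP. SPSB1, a substrate adaptor of a ubiquitin ligase, had 87.8% of its length in domains, and its start lay outside. A domain of 102.4 kb took in 91.7% of CNTN2, an axonal adhesion molecule, and the end of NFASC, which encodes neurofascin. RBFOX3, which encodes a splicing factor of neurons, had 60.1% of its 426.8 kb in domains, with its start outside.

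The other 6 of the widest domains were between 79.2 and 86.0 kb. The troponin genes TNNT2 and TNNI1, for heart and slow skeletal muscle, lay wholly in a domain of 80.9 kb together with LAD1. The Notch ligand gene DLL1 had 66.8% of its length in a domain but started outside it, and FAM120B started in the same domain with 6.69% of its length inside. UMODL1 (70.4%) and FAM20C, a secretory pathway kinase gene (36.7%), started in their domains. TSPAN9, a tetraspanin gene (24.5%), and PRKAG2, which encodes a subunit of AMP-activated kinase (55.0%), did not. The mean H3K27me3 coverage in the widest domain was 47.3 and 60.9 fragments per base in replicates 1 and 2. In the other 11 it lay between 5.60 and 19.7 in replicate 1, and between 7.32 and 26.0 in replicate 2.

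Of 20098 protein-coding genes, 859 were overlapped by a domain, 472 had at least 50% of their length in domains and 237 lay wholly inside one. The genes wholly inside were short, with a median of 6.15 kb against 27.3 kb for all protein-coding genes, as a gene must be shorter than a domain to fit in it. The longest were LAMC3 (85.3 kb), SLC12A7 (61.7 kb) and ZNF469 (57.8 kb). A protein-coding gene started in a domain in 511 cases, which is 2.54% of all. A start was found in 381 domains (33.1%), against 13.0% of the regions of 5 to 20 kb, which are shorter and so have less room for one. Another 374 domains (32.5%) lay wholly within 1 gene. Large genes could hold several domains: PTPRN2, a phosphatase-like gene of secretory vesicles, was overlapped by 8, RBFOX3 by 7 and IQSEC1, an exchange factor for ARF GTPases, by 6, genes chosen after their values were seen. None of these 3 had an H3K27ac peak at its outermost start in any library.

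No protein-coding gene overlapped 276 domains (24.0%), while 719 overlapped 1 such gene and 155 overlapped more, up to 11. The widest without a protein-coding gene (chr7:155008081-155080522, 72.4 kb) held the starts of 3 long noncoding RNA genes known by identifier only. The second (chr22:19545796-19616445, 70.7 kb) held the start of LINC00895, and the fifth (chr21:44772212-44832823, 60.6 kb) that of LINC01679. In all, 490 of 18592 long noncoding RNA genes (2.64%) started in a domain, close to the share of protein-coding genes. No set test was run on these shares or on those of the lists that follow.

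Lists of genes of developmental control had larger shares of starts in domains than the 2.54% of all protein-coding genes. In shorter H3K27me3 regions they also had larger shares than the 16.3% of all protein-coding genes, so this was not particular to domains. In the HOX clusters, which pattern the body axis, 10 of 39 genes did so (25.6%). They were HOXC11 and HOXC12 in a domain of 31.8 kb, HOXD4 in 1 of 28.6 kb, HOXA3, HOXA5, HOXA6 and HOXA7 together in 1 of 25.0 kb, HOXB13, HOXD1 and HOXA13. All 10 had no H3K27ac peak at the promoter in any of the 6 libraries, as did 50.6% of all protein-coding promoters. A peak in all 6 was found at 6 of the 39 HOX promoters, against 32.9% of all protein-coding promoters. Another 14 HOX genes started in shorter regions. Each cluster thus held domains over some of its genes and not over all.

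Of 82 other homeobox genes, 9 started in domains (11.0%) and 45 in shorter regions. The widest such domains were those of PAX7 (47.4 kb) and PAX2 (39.5 kb), of muscle precursors and kidney, TLX1 (30.5 kb), of the spleen, and ALX4 (29.0 kb) and EMX1 (26.1 kb), of skull and cortex. Among 66 transcription factors of other lineages, 8 started in domains (12.1%) and 30 in shorter regions. SOX8 started in the widest of these domains (62.5 kb), then TBX1 (28.4 kb), the heart factor TBX5 (26.4 kb), FOXF1 (25.9 kb) and HAND1 (25.8 kb). The genes of WNT, FGF, BMP and hedgehog ligands had 8 of 54 starts in domains (14.8%) and 15 in shorter regions. SHH lay in the widest of these domains (50.1 kb), followed by WNT7B (40.8 kb), FGF3 (32.9 kb), FGF4 (27.1 kb) and WNT4 (26.2 kb). Among these 3 lists, 1 gene that started in a domain had H3K27ac at the promoter in 4 or more libraries, namely TBX1.

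Neuronal receptors and ion channels had 7 of 71 starts in domains (9.86%) and 23 in shorter regions. Those in domains included the sodium channel subunit SCN4B (38.8 kb), the kainate receptor subunit GRIK4 (37.3 kb), the nicotinic receptor subunit CHRNA4 (30.2 kb) and the glutamate receptor GRM4 (26.1 kb). CIITA, the master regulator of MHC class II genes, was the 1 of 26 T and B cell genes (3.85%) that started in a domain. No start of 53 clustered protocadherins, 25 hepatocyte genes, 26 erythroid genes, 53 cytosolic ribosomal protein genes or 29 Polycomb subunit genes lay in one. Of the lists without a domain, 53 of 53 protocadherin and 22 of 25 hepatocyte promoters had no H3K27ac in any library, against 50.6% of all protein-coding promoters. In these lists 3 protocadherin genes and 5 hepatocyte genes started in shorter H3K27me3 regions, where 16.3% of all protein-coding genes did.

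**Figure D2:**
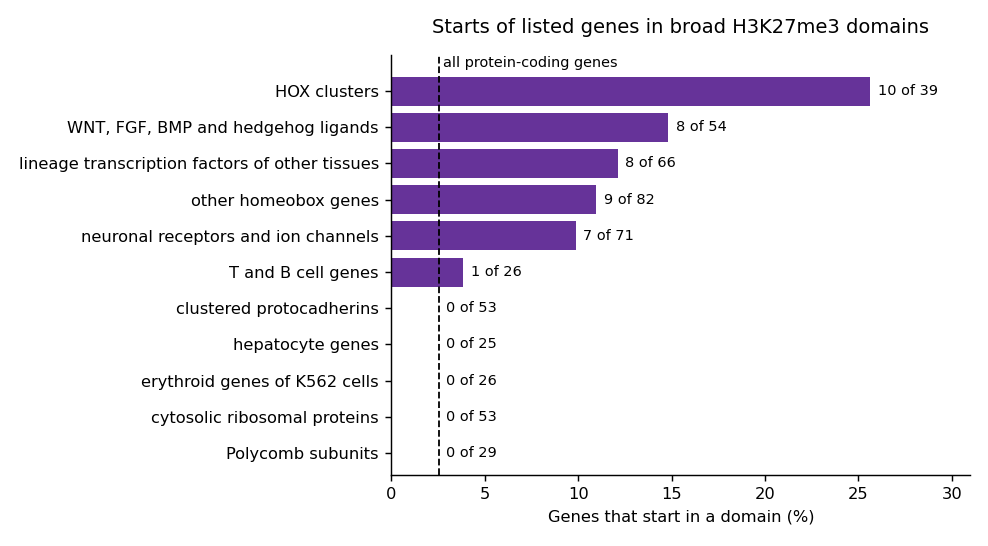
Percentage of the genes of each list whose outermost start lies in a domain, with counts beside the bars. The dashed line is the share of all protein-coding genes (2.54%). The HOX clusters have the largest share (25.6%), and 5 lists have none.

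Few domains held a listed H3K27ac peak. In 1085 of the 1150 domains (94.3%), none of the 6 H3K27ac libraries had a peak, and 6 domains (0.522%) had one in all 6. The share of peak-free stretches of like width outside domains was not counted, so this count alone does not set domains apart. The study chose a stricter SEACR threshold for H3K27ac than for H3K27me3. It also reports residual H3K27ac reads at some reference locations of H3K27me3, and reads were not looked at here. H3K27ac peaks covered 2.18% ± 0.447 of the known bases of the chromosomes (SD, n = 6 libraries). With ab177178, H3K27ac peaks covered 1.31% and 1.41% of domain bases, with ab4729 1.01% and 0.371%, and with Diagenode 0.107% and 0.187%. In the 20 kb on either side they covered 3.11% and 3.07%, 1.86% and 1.51%, and 1.20% and 1.58%, in the same order. All 6 libraries were lower inside than outside. Inside, the ab177178 libraries were highest and the Diagenode libraries lowest, and ab4729 replicate 2 lay nearer to Diagenode than to its own replicate. On average, 0.733% ± 0.582 of domain bases and 2.06% ± 0.830 of flank bases lay under H3K27ac (SD, n = 6), a difference of −1.32 ± 0.362 points. The exact two-sided sign-flip test over libraries gave p = 0.03125, the smallest that 6 libraries allow, and 0.063 after Benjamini-Hochberg adjustment over 6 tests, above the threshold of 0.05. With flanks of 50 kb the difference was −2.22 points, with H3K27ac peaks from MACS2 it was −0.77, and with the H3K27ac peaks of highest signal (50% of each list) it was −0.78.

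Of the H3K27ac bases in domains, 86.6% ± 4.10 (SD, n = 6 libraries) lay in 32 domains of 2 stretches, set after the values were seen. They are the 5 Mb before BCR up to its end on chromosome 22 (30 domains) and ABL1 with the 0.5 Mb after it on chromosome 9 (2 domains). These 32 domains are 3.70% of the domain bases. H3K27ac covered 16.9% ± 13.4 of them, against 0.111% ± 0.0923 of the 1118 domains elsewhere. Without them, the difference between domains and flanks was −1.46 points (0.111% against 1.57%). No p is given without the stretches, since they were set with their H3K27ac known. Of the domains elsewhere, 1079 (96.5%) had no H3K27ac peak in any library, against 6 of the 32 in the stretches.

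**Figure D3:**
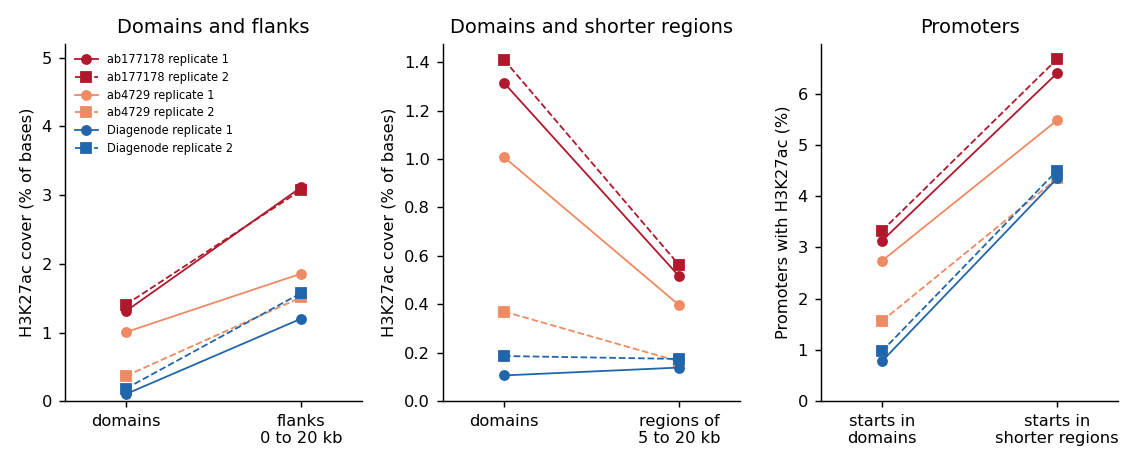
Each line is 1 H3K27ac library. Left, percentage of bases under H3K27ac peaks in domains and in their 20 kb flanks. Middle, the same in domains and in regions of 5 to 20 kb. Right, percentage of protein-coding promoters with an H3K27ac peak, for starts in domains and in shorter regions. All 6 libraries are lower in domains on the left and right, and 5 of 6 are higher in domains in the middle, a direction that turns without the stretches beside BCR and ABL1.

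At the boundaries, H3K27ac was lower in the first 5 kb outside a domain than from 5 to 20 kb outside. It covered 1.21% of the near zone and 2.32% of the far zone on average, a difference of −1.11 points that was negative in 6 of 6 libraries (exact sign-flip test, p = 0.03125, adjusted p = 0.063) and −0.52 with H3K27ac peaks from MACS2. From 8 to 9 kb outside it covered 2.29% ± 0.807, from 0 to 1 kb outside 0.828% ± 0.424, and from 6 to 7 kb inside 0.375% ± 0.395 (SD, n = 6). Within domains, the 5 kb next to the boundary had 0.613% under H3K27ac and the interior 0.790%, and 4 of 6 libraries were lower at the edge (exact sign-flip test, p = 0.219). The libraries of ab177178 and ab4729 were lower at the edge and those of Diagenode were higher. Without the 2 stretches the sign turned, to 0.170% at the edge and 0.0820% in the interior. There, 0.328% of the first kb inside lay under H3K27ac, 0.243% of the second and 0.124% of the third.

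**Figure D4:**
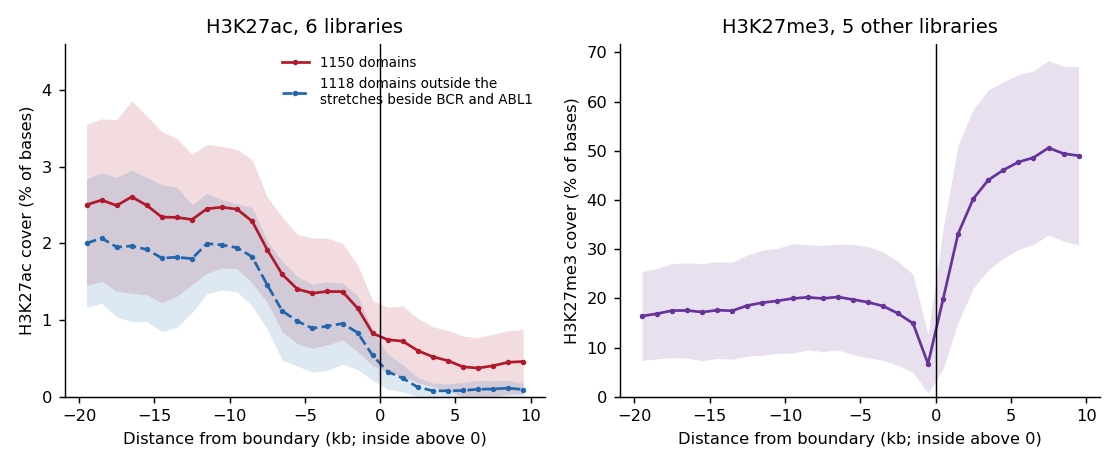
Percentage of bases under peaks in 1 kb bins by distance from the boundary, inside above 0, as the mean over libraries with a band of 1 SD. Left, H3K27ac in 6 libraries for all 1150 domains and for the 1118 outside the 2 stretches. Right, H3K27me3 in the 5 other libraries. H3K27ac goes down towards the boundary from about 10 kb outside, and H3K27me3 goes up within 5 kb inside. On the right, H3K27me3 dips just outside the boundary (6.70% from 0 to 1 kb). By the rule, domains end where neither benchmark list goes on, and the part of this in the dip was not tested.

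Domains were next compared with the 10680 regions of 5 to 20 kb called by the same 2 libraries. On average 0.733% of domain bases and 0.326% of bases in the shorter regions lay under H3K27ac, a difference of 0.41 ± 0.394 points that was positive in 5 of 6 libraries (exact sign-flip test, p = 0.0938, adjusted p = 0.1125). The exception was Diagenode replicate 1, with 0.107% in domains and 0.140% in shorter regions. The difference was 0.07 points with H3K27ac peaks from MACS2, 0.16 with H3K27me3 peaks within 1000 bp merged and 0.25 with the H3K27ac peaks of highest signal. This direction rested on the 2 stretches. Without them H3K27ac covered 0.111% of domains and 0.216% of shorter regions, and all 6 libraries were lower in domains (−0.10 points), given with no test for the same reason.

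Promoters were looked at next, as the 1.5 kb on either side of the outermost start of a gene. Of the 511 promoters whose start lay in a domain, 490 (95.9%) had no H3K27ac peak in any library and 2 had one in all 6, AIF1L and YPEL1. Over all protein-coding genes, 50.6% had none and 32.9% had one in all 6. Among 3268 genes that started in regions under 20 kb, 3019 had none and 115 had one in all 6. By library, H3K27ac was at 3.13% and 3.33% of promoters in domains with ab177178, 2.74% and 1.57% with ab4729, and 0.783% and 0.978% with Diagenode. In shorter regions the shares were 6.40% and 6.67%, 5.48% and 4.35%, and 4.35% and 4.50%, in the same order. The 2 sets did not overlap, with 3.33% the highest in domains and 4.35% the lowest in shorter regions.

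The mean was 2.09% ± 1.12 for promoters in domains and 5.29% ± 1.06 for those in shorter regions (SD, n = 6), a difference of −3.20 ± 0.360 points. The exact sign-flip test gave p = 0.03125, the smallest possible, and an adjusted p = 0.063. A window of 1.5 kb on either side reaches past the boundary more readily in shorter regions than in domains. All regions called by both libraries had a median width of 2470 bp. The comparison therefore cannot tell H3K27ac inside a shorter region from H3K27ac just beyond it, and the part of this was not tested. All protein-coding promoters stood at 41.5% ± 4.26. Without the stretches the difference was −4.11 points, with 487 of 493 promoters in domains at none. When only the H3K27me3 peaks with the highest signal (50% of each list) were merged, it was −0.28 points (2.10% against 2.38%, exact sign-flip test, p = 0.281), and it was −5.43 with H3K27ac peaks from MACS2 and −1.83 with those of highest signal. With the strongest H3K27me3 peaks, the share in shorter regions was lower (5.29% in the full lists) and the share in domains was close to the 2.09% of the full lists.

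The 8 genes that started in a domain and had H3K27ac in at least 4 libraries were TMEM52, QRFP, FIBCD1, AIF1L, C14orf180, CLDN5, TBX1 and YPEL1, and 6 of them lay in the 2 stretches. The start of TMEM52 was 0.909 kb from the domain boundary and that of YPEL1 1.09 kb, so that their promoter windows crossed it. That of AIF1L was 27.4 kb inside. The start of FIBCD1 was 11.0 kb inside. Over the 21 starts with H3K27ac in any library the median distance to the boundary was 9.02 kb, against 7.59 kb for the 490 without it.

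The 8 domains with the largest mean H3K27ac cover all lay in the stretches beside BCR and ABL1. The domain over the start of TBX1, a T-box factor of the pharynx and heart (chr22:19719197-19747616), came first. H3K27ac covered 93.1% and 99.6% of it with ab177178, 72.4% and 64.8% with ab4729, and 15.8% and 11.2% with Diagenode, so every library had peaks there and the antibodies kept apart. The domain that contains GNAZ, a G protein subunit gene (chr22:23399189-23477921, 78.7 kb), had 80.4% and 78.4%, 69.3% and 18.3%, and 8.35% and 16.0%, in the same order. Here ab4729 replicate 2 lay with the Diagenode libraries. The domain over IGLL5, an immunoglobulin lambda-like gene, had 78.9% and 69.0%, 51.7% and 14.8%, and none with Diagenode.

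The domain of QRFP, a neuropeptide gene, and FIBCD1, a chitin receptor gene (chr9:133768804-133825637), averaged 35.3% under H3K27ac. It starts 5.74 kb after the end of ABL1. The domain over the starts of RSPH14, a radial spoke gene, and RAB36, a small GTPase gene, averaged 35.3% as well and ends 8.77 kb before BCR. GGTLC2, a gamma-glutamyltransferase light chain gene, lay in a domain with 28.8%, and a gene-free domain (chr22:20151850-20195556) had 27.9%. The widest domain, of LAMC3 and AIF1L, had 26.6%, with 44.7% the highest and 10.1% the lowest library.

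H3K27me3 coverage was also high in these 2 stretches, which are a pair of short neighbourhoods with 0.191% of the chromosomes' length. Their 32 domains had a median of 16.6 and 21.4 fragments per base in replicates 1 and 2, against 7.78 and 10.4 in the 1118 domains elsewhere. The QRFP and FIBCD1 domain reached 110.3 and 145.9, and the highest elsewhere was 42.1 and 53.9. H3K27ac peaks covered between 16.9% and 39.9% of all bases in the stretches, and between 1.63% and 2.56% of the chromosomes. K562 cells are known to carry the BCR-ABL1 fusion of chromosomes 9 and 22 in more than the usual number of copies. DNA copy number was not analysed here, and its part in these values was not tested.

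**Figure D5:**
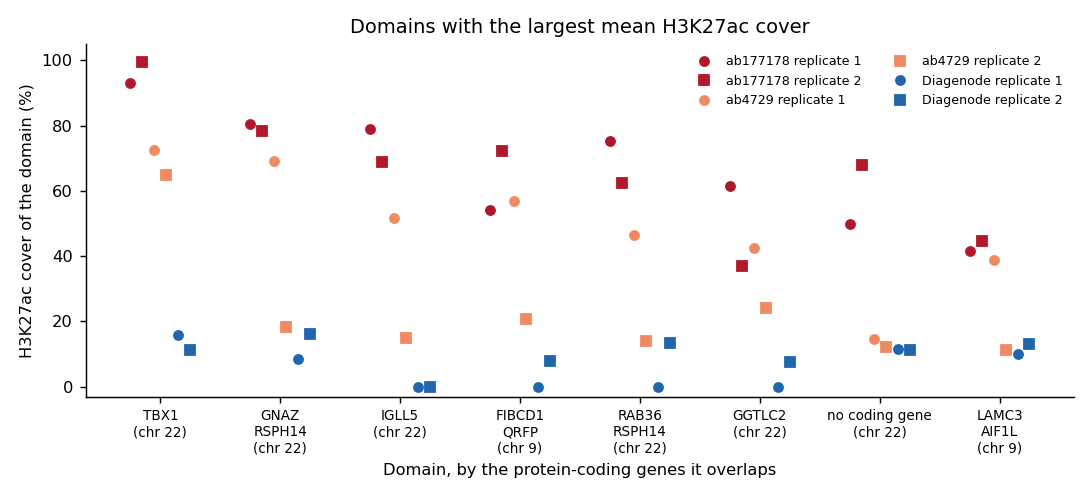
Percentage of each domain under H3K27ac peaks, with 1 point per library, for the 8 domains with the largest mean cover. In each, an ab177178 library is highest. The Diagenode libraries stay at or under 16.0% in all 8.

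Outside the stretches, the domain with most H3K27ac averaged 9.42% and overlapped no protein-coding gene. There, 13 domains had peaks in at least 3 libraries, against 15 of the 32 in the stretches.

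The domains were then looked for in the 5 CST-9733 libraries that had not been used to choose them. In all 5, 1149 of the 1150 domains held a SEACR peak, and the remaining 1 did in 4. The first library covered 76.5% of domain bases, and the libraries with 11 cycles covered 31.7% (SDS) and 41.8% (column). Those with 13 cycles covered 45.4% (SDS) and 39.5% (column). In regions of 5 to 20 kb, the same libraries covered 60.4%, 20.01%, 25.4%, 28.5% and 24.5%. Each library covered more of the domains than of the shorter regions, and the first library was highest in both. The mean was 47.0% ± 17.2 in domains and 31.8% ± 16.3 in shorter regions (SD, n = 5), with a difference of 15.2 ± 2.09 points. The exact sign-flip test gave p = 0.063, the smallest that 5 libraries allow (adjusted p = 0.0938). All share the mark, the antibody and the cells with the benchmark libraries, whose peak widths set apart domains and shorter regions. The test cannot tell the direction of the difference from this choice. The 4 lists with 11 or 13 cycles are marked as downsampled, while that of the first library is not. The part of depth in the level was not tested. A single kb just inside the boundary was covered to 19.9%, and the eighth kb to 50.6%. Cover thus rose inwards from the boundary of domains. Shorter regions have a larger share of their bases near a boundary. The comparison of domains and shorter regions therefore cannot tell such edges from a lower level within shorter regions, and this was not tested.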

How the data were processed

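CUT&Tag libraries of K562 cells were analysed as deposited peak lists on hg19 (GRCh37). Per the study's methods and the submitters' processing notes, the authors trimmed (Trim Galore 0.6.6) and aligned reads (Bowtie2 2.2.9) and took out duplicates (Picard 2.6.0). Fragment files under 1000 bp were made with SAMtools 1.3.1 and bedtools 2.25.0, and SEACR and MACS2 each ran on single libraries. The deposited SEACR column used here is a total signal, the fragment coverage added up over a peak, which was divided by width to give mean coverage. In the MACS2 lists as deposited, the authors give a −log10 q per peak, which was not used for ranking. The 2 benchmark H3K27me3 lists were called with a SEACR threshold of 0.1. The mode of SEACR is worded differently in the study's results and in its methods. Blacklisted regions were not removed.

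Domains, regions of 5 to 20 kb, flanks of 20 kb and edge zones of 5 kb were compared by the percentage of their bases under peaks, with other domains and unknown bases taken out of flanks. Promoters in shorter regions were those in any region under 20 kb called by both libraries. Genes came from GENCODE 44 lifted to GRCh37. Differences within each library were tested by exact two-sided sign flips over libraries, with Benjamini-Hochberg adjustment over 6 tests. The 6 H3K27ac libraries come from 3 antibodies with 2 libraries each and are not fully independent. No H3K27me3 peak of the 13 libraries, nor any of H3K27ac, ran past a chromosome end. The functions were checked on simulated data against bedtools (2.31.1), and run with Python 3.11.15, numpy 2.4.6 and matplotlib 3.10.9.

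The members, the 11 gene lists and the tests were chosen with earlier results of these data known. Genes were named by rule: up to 5 with the largest share inside each of the 12 widest domains, up to 5 of each list by domain width, those starting in the 8 domains with most H3K27ac, those at the width threshold, and long noncoding RNA genes in the widest gene-free domains. All 10 HOX genes were named, beyond the rule. A member that the rule names in the list of neuronal receptors and ion channels, and the sequence of a further domain, are not reported here. The 2 stretches beside BCR and ABL1, and the values without them, were added after the values were seen.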

Additional observations from a re-analysis of the deposited data

Results flagged for a closer look

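In the regions of 5 to 20 kb, the first CST-9733 library covered 60.4% of bases with H3K27me3 peaks, far from the other 4 libraries outside the benchmark set, which covered between 20.01% and 28.5%. It was also the highest in domains (76.5%), where it did not stand apart by the same measure, Dixon's ratio of the gap to the range. Of 18 groups of values looked at, this was the 1 that stood apart, and chance alone marks about 1 in 20 groups. The other 4 lists are marked as downsampled in the deposit and the first is not. The part of depth in this was not tested.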

How the results depend on the processing

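The number of domains was 1150 under the main rule, 2075 from 15 kb, 437 from 30 kb and 2519 when H3K27me3 peaks within 1000 bp were merged, the rule itself setting these. It lay between 1095 and 1678 under the other alternatives. Of the 99 alternative values of the 6 comparisons, 94 kept their sign, and all 35 that left out 1 library did. Where all libraries lay on the same side, leaving 1 out could not change the sign. This holds for flanks, the near against the far zone, promoters and the other H3K27me3 libraries. Asking each library to cover at least 50% of a region kept the same 1150 domains, so part of the count was fixed in advance. Leaving out a library gave −1.42 to −1.23 points for domains against flanks, −0.24 to −0.12 for edges against interiors, −1.21 to −1.005 for the near against the far zone outside, 0.32 to 0.49 for domains against shorter regions, −3.29 to −3.13 for promoters and 14.8 to 16.1 for the other H3K27me3 libraries. The difference of edges and interiors changed sign to 0.0946 with peaks within 1000 bp merged, 0.0113 with H3K27ac from MACS2, 0.0022085 with an edge of 2 kb and 0.0884 without the stretches beside BCR and ABL1.

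With domains from 30 kb, 4 differences passed the threshold of the exact sign-flip tests (adjusted p = 0.046875): −1.11 for flanks, −0.77 for the near zone outside, 0.79 for shorter regions and −2.01 for promoters. Away from unknown bases (100 kb from runs of at least 10 kb), the same 4 passed at −1.26, −1.12, 0.49 and −2.92. Without the stretches, an alternative added after the values were seen and given with no test since the stretches were set with their H3K27ac known, the values were −1.46, −0.98, −0.10 (a change of sign) and −4.11. In the settings that passed, the comparison with shorter regions came to the smallest p of 0.03125 as well, and the adjustment over 6 tests then gives 0.046875 to all 4 in place of 0.063. Each difference is already taken between places of the same library. No paired analysis was possible by replicate number because no groups of samples were compared with each other. The peak lists give no depth, which limits what the absence of a peak shows.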
